A study of Mus musculus with 8 samples.

Results

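The genes described here are *Gabra6*, which codes for a subunit of the GABA-A receptor, and 9 other genes known for their expression in neurons of the cerebellum: *Cbln1*, *Cbln3*, *Barhl1*, *En2*, *Zic1*, *Zic2*, *Zic4*, *Neurod1* and *Car8*. They were found by their gene symbol among the probes of a mouse oligo DNA microarray, on which the 10 genes had 16 of the 41174 probes, of 27962 gene symbols in all. The genes were picked with their ratios of PACAP38 over saline known, so those ratios are a description, and no test was made on them.

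RNA came from the ipsilateral (right) hemisphere of male C57BL/6J mice aged 8 to 12 weeks. The mice had a sham operation or PMCAO, in which a filament blocks the middle cerebral artery for good, and immediately afterwards an intracerebroventricular injection of 1 pmol PACAP38 in 1 μL or of 0.9% saline. The 4 comparisons of PACAP38 over saline were sham 6 h, PMCAO 6 h, sham 24 h and PMCAO 24 h, where the time counts from the injection, and all groups carried the same strain, route and volume of injection. For each of the 8 groups the RNA of 3 mice was pooled (300 ng each, 900 ng in all). By the methods the same pool was labeled once with Cy5 and once with Cy3, while the sample titles name the 2 arrays Pooled 1 and Pooled 2. The methods were followed here, so each comparison had 2 arrays with the dyes exchanged and 1 replicate, a pool. On that reading the values carry no error between mice, and differences between the 2 arrays measure labeling and hybridization. Only PMCAO mice with a neurological grade of 1 to 2 were used, and the study states that cerebellum and olfactory bulb were taken off the hemispheres before freezing. In RNA of a whole hemisphere, fewer cells of a type and less RNA per cell cannot be told apart.

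GABA-A receptors are chloride channels made of several subunits, and the α6 subunit coded by *Gabra6* is a hallmark of mature cerebellar granule cells, where it takes part in tonic inhibition together with the δ subunit. Granule cells send parallel fibers to Purkinje cells, and *Cbln1*, with its partner *Cbln3*, is secreted from these fibers to hold the synapse together by bridging neurexin and the δ2 glutamate receptor. *Zic1*, *Zic2*, *Zic4*, *Barhl1*, *En2* and *Neurod1* code for transcription factors of granule cell development that other brain regions also use, and *Car8* codes for a protein that binds the IP3 receptor and is abundant in Purkinje cells. PACAP is a neuropeptide whose receptors raise cyclic AMP, and cerebellar granule neurons are known to respond to it.

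One array stood apart. Over probes well above background, the levels of sham 6 h array 2 differed from those of its dye-swap partner with an SD of 1.22 on the log2 scale, and 48.2% of 19619 probes differed by over 1, against an SD of at most 0.256 and at most 0.594% of probes in the other 3 pairs. The ratios of PACAP38 over saline were less alike than the levels. Between the 2 arrays their Pearson's r over these probes was −0.005 in sham 6 h and 0.15 in PMCAO 6 h. In sham 24 h it was −0.56 and in PMCAO 24 h 0.43. On that array 10.6% of the spots were marked as outliers, against at most 3.09% on the other arrays, and the second *Car8* probe and the second *Zic1* probe had no value there. Counts, lower limits and PMCAO over sham differences that use sham 6 h are given for array 1 alone as well.

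The probes of the 3 genes with the largest ratios are shown as their first 30 of 60 bases, since the values below are the binding of labeled RNA to these stretches. *Gabra6* had 1 probe at chr11:42263338-42263397 on the minus strand of mm7, the build of the array's annotation. *Cbln3* had probe 1 at chr14:50749703-50749762 and probe 2 at chr14:50747308-50747367, both on the minus strand. *Car8* had probe 1 at chr4:8070545-8070604 and probe 2 at chr4:8072704-8072763 on the minus strand, with starts 2159 bases apart. The array's annotation names the transcript of each probe and not its exon or UTR.

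Gabra6 probe: tgcatatgtacatagctttagttatgctgc
Cbln3 probe 1: acattctgcaggtaaactgggacagtcaga
Cbln3 probe 2: cacagacttaaaatctcaagatgatgtttt
Car8 probe 1: atctgattcagaatagaaacattactgtgt
Car8 probe 2: tggcatatctgaatgtatggcttctaagga

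The study also used a pair of RT-PCR primers for *Gabra6*, each of 22 bases, which are shown so that the measurement could be repeated. It reports *Gabra6* as strongly raised at 6 h in the ischemic hemisphere after PACAP38 and as not expressed at 24 h. It states that its RT-PCR bore this out. Where the primers lie relative to the array probe was not checked.

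Gabra6 forward primer: cttcaccaatctccagtcacag
Gabra6 reverse primer: gcaaaagctactgggaagagaa

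The 250 bases before the start of *Gabra6* (GRCm38.p6, chr11:42321073-42321322, minus strand, from RefSeq) are shown because nuclear factor I is known to control this gene in granule cells. The capitals mark the letters of its core site, TTGGC or GCCAA on the other strand, which occurred 1 time.

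Gabra6 promoter: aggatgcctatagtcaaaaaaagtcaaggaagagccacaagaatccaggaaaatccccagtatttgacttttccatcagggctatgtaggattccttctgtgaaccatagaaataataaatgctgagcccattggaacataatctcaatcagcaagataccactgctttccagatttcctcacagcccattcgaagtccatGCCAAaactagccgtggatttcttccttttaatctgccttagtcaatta

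The core site was in 41.5% of all 32851 promoter windows of this length and in 4 of the 7 windows listed for *Gabra6*, *Cbln3*, *Barhl1*, *Neurod1*, *Zic1* and *Zic4*. The core of the cyclic AMP response element, TGACG or CGTCA, was in 17.8% of all windows and in 1 of those 7, a *Barhl1* window. The E box letters CANNTG, which are the same on both strands and can share letters with both other motifs, were in 66.2% of all windows and in 6 of the 7. The *Gabra6* window held neither the core of the cyclic AMP response element nor an E box.

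*Gabra6* was higher after PACAP38 than after saline in PMCAO at 6 h and on both arrays. The mean spot signal after PACAP38 was 257 in Cy5 on array 1 and 102 in Cy3 on array 2, in the scanner's units, with a local background of 47.0 and 44.0. After saline it was 51.4 in Cy3 and 54.0 in Cy5, with a background of 47.0 and 49.5. Both PACAP38 signals were well above background, and neither saline signal was. The log2 ratio given by the scanner's software was 4.74 on array 1 and 6.69 on array 2. These ratios divide by a saline signal that the software placed near 0, so the difference is given as a lower limit. The limit sets the PACAP38 signal, after background correction and scaling between arrays, against the higher of the saline signal of the probe and the lowest signal among probes well above background. On both arrays the saline signal of the probe was the higher one, and by this limit *Gabra6* was at least 2.11-fold higher. With the scanner's processed signals, where the lowest signal among probes above background was the higher one, the limit was at least 17.3-fold. The direction of a limit is set by the background flags, so the 2 limits could not differ in it. After normexp background correction and loess the log2 ratios were 0.98 and 1.17, and that correction adds an offset of 50 to every signal. The 2.11-fold limit is the mean of these 2 ratios in fold and not a separate measurement.

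In the other 3 comparisons the *Gabra6* signal stayed close to background. In sham at 6 h the signals were 58.2 after PACAP38 and 49.3 after saline on array 1, and 56.4 and 64.6 on array 2, where the dyes were exchanged. The log2 ratios, which correct for the dyes, were 0.95 and 1.61, and after normexp and loess they were 0.02 and 0.17. Of these 4 signals, the PACAP38 signal of array 2 was the only one well above background, and the lower limit was 1.07-fold. On array 1 alone, neither channel was well above background. In sham at 24 h the signals were 125 after PACAP38 and 73.8 after saline on array 1, and 79.5 and 108.0 on array 2. In each array of this pair the Cy5 signal was the brighter one, with a Cy5 background of 79.0 and 67.5, and the lower limit for PACAP38 was again 1.07-fold. Its log2 ratios were 1.07 and 0.39, and after normexp and loess 0.15 and 0.05. For PMCAO at 24 h the signals were 147.0 and 98.9 on array 1, both well above background, and 70.5 and 90.9 on array 2, neither well above background. The log2 ratios of that pair were −0.25 and −0.34.

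Placed on 1 scale, as the log2 processed signal minus the 75th percentile of the same channel, the *Gabra6* level was −1.36 ± 0.12 (SD between the 2 arrays of 1 pool) in PMCAO with PACAP38 at 6 h. The other 7 groups had levels between −7.08 and −5.10, with SDs between arrays of 0.02 to 2.20. In descending order they were sham PACAP38 6 h, sham PACAP38 24 h, PMCAO saline 24 h, PMCAO PACAP38 24 h, sham saline 6 h, sham saline 24 h and PMCAO saline 6 h, and no neighbors in this order differed by more than the larger of their SDs. The first 4 had 1 of 2 arrays well above background and the last 3 had 0. The sham groups of 24 h, which are not neighbors, had −5.44 and −6.11 with PACAP38 and −6.52 and −6.49 with saline, without overlap.

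**Figure D1:**
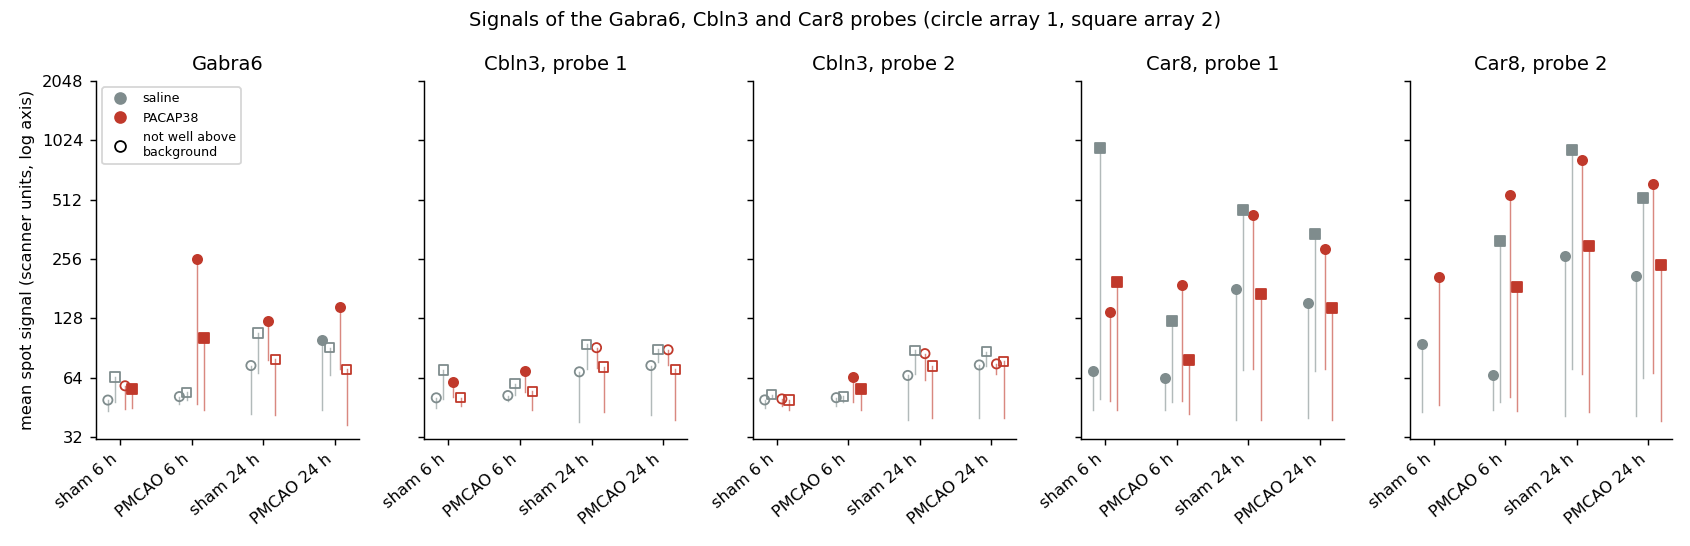
Mean spot signal (log axis, scanner units) of the *Gabra6*, *Cbln3* and *Car8* probes after saline (grey) and PACAP38 (red) in the 4 comparisons; circles are array 1 and squares array 2, the line under each point runs down to its local background, and open symbols were not well above background. The *Gabra6* probe stands highest over its background in PMCAO 6 h after PACAP38, the *Cbln3* probes stay near background everywhere, and the *Car8* probes are above background in every channel with a value.

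*Cbln3*, which codes for a cerebellin that granule cells secrete in complex with Cbln1, followed at the edge of detection. In PMCAO at 6 h probe 1 had log2 ratios of 0.96 and 1.38, and probe 2 had 1.53 and 3.42. After PACAP38, probe 1 passed the background flag on 1 of 2 arrays and probe 2 on 2 of 2, and after saline neither probe passed it on any array. The lower limits were 1.06-fold for probe 1 and 1.09-fold for probe 2, so the size of the difference was not measured. In the other 3 comparisons the PACAP38 signal of probe 1 on sham 6 h array 1 was the only one of the 2 probes well above background. The *Cbln3* ratios there ran from −1.82 to 1.70 and changed sign between arrays in sham at 24 h.

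*Cbln1*, the partner that bridges neurexin and the δ2 receptor, was above background in every channel and had no such difference. Its brighter probe had log2 ratios of 0.05 and 0.62 in PMCAO at 6 h, and its other probe, 2281 bases away, had −0.09 and −0.11. In PMCAO at 24 h the brighter probe had −0.57 and −0.25, a mean of 0.75-fold that did not pass the threshold, and the other probe had −0.85 and 0.13.

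*Car8* was the member with the clearest measured difference, since both channels of both its probes were well above background. Probe 2 gave signals of 541 after PACAP38 and 66.4 after saline on array 1 of PMCAO 6 h, and 185 and 317 on array 2, where saline was in the brighter Cy5 channel. Its log2 ratios, which correct for the dyes, were 2.09 and 1.33, a mean of 3.28-fold. Probe 1 had log2 ratios of 0.72 and 0.89, a mean of 1.74-fold. After normexp and loess, probe 2 had 1.14 and 0.79 and probe 1 had 0.22 and 0.30, so the direction was kept on each array at a smaller size. In sham at 6 h probe 1 had 0.08 and −0.26, and probe 2 had −0.37 on array 1. In sham at 24 h the ratios of both probes lay between −0.28 and 0.40 and changed sign between the arrays. At the later time in PMCAO, 24 h, probe 1 had −0.24 and −0.46, and probe 2 had 0.37 and −0.07.

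Among the transcription factors, *Neurod1* passed the threshold in PMCAO at 6 h, with log2 ratios of 1.00 and 0.35 and a mean of 1.60-fold. It passed again in PMCAO at 24 h, with 0.92 and 0.43 and the same mean of 1.60-fold. Array 1 gave the larger ratio both times, and in each pair 1 array alone was past the threshold. After normexp and loess its mean log2 ratios were 0.23 and 0.40, so neither passed. In sham it had −0.17 and 0.22 at 6 h and 0.38 and −0.11 at 24 h. *Neurod1* also marks granule neurons of the dentate gyrus, which lie within the hemisphere.

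*En2*, a homeobox gene of the midbrain and cerebellum, had 10 spots on each array. In PMCAO at 6 h its log2 ratio was 0.40 ± 0.15 on array 1 and 0.63 ± 0.16 on array 2 (SD over 10 spots), a mean of 1.43-fold, just under the threshold. In PMCAO at 24 h it was −0.08 ± 0.07 (8 spots) and −0.20 ± 0.04 (10 spots). The spots of *En2* measure the precision within an array, and the difference between its 2 arrays of PMCAO 6 h was larger than that spread. *Zic1* had log2 ratios of 0.35 and 0.36 with probe 1 in PMCAO at 6 h and 0.45 and 0.33 with probe 2, and the 2 probes share 40 bases. *Zic2* had 0.55 and 0.35 there, with saline above background on 1 of 2 arrays.

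*Zic4*, a neighbor of *Zic1* in the genome, and *Barhl1*, a homeobox gene of granule cell precursors, did not share this direction. In PMCAO at 6 h *Zic4* had −0.19 and −0.17 with probe 1 and 0.40 and −0.07 with probe 2, and *Barhl1* had −0.54 and 0.11 with probe 1 and −0.21 and 0.07 with probe 2.

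Counted over all probes, 6 of the 16 were above 1.5-fold and 0 were below 0.75-fold in PMCAO at 6 h, where 5.41% of all probes were above and 6.9% below. These 6 were the probes of *Gabra6*, *Cbln3*, *Neurod1* and *Car8*, and 5 of them were above on each array, against 1.14% of all probes. Below on each array were 0 members and 1.63% of all probes. The median log2 ratio of the 10 genes, each at its brightest probe, was 0.48, where the median of all probes was 0. In sham at 6 h 1 probe was above (*Gabra6*) and 2 were below (*Cbln3*), against 3.98% and 7.48% of all probes, and 2 probes rested on array 1 alone. By array 1 alone 3 probes were above and 1 below, with a median over the genes of −0.13, and the share of all probes was not computed. On each array of that pair 1 member was above and 0 below, against 0.79% and 1.04%. In sham at 24 h 2 were above (*Gabra6* and *Cbln3*) and 0 below, against 1.75% and 3.87%, and on each array 0 were above and 0 below, against 0.226% and 0.892%. For PMCAO at 24 h 1 was above (*Neurod1*) and 0 below, against 2.99% and 8.18%, and on each array 0 and 0, against 0.823% and 3.75%. The medians of the genes were −0.12, 0.02 and −0.09, in this order. Since the genes were chosen on these ratios, nothing follows from the counts.

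**Figure D2:**
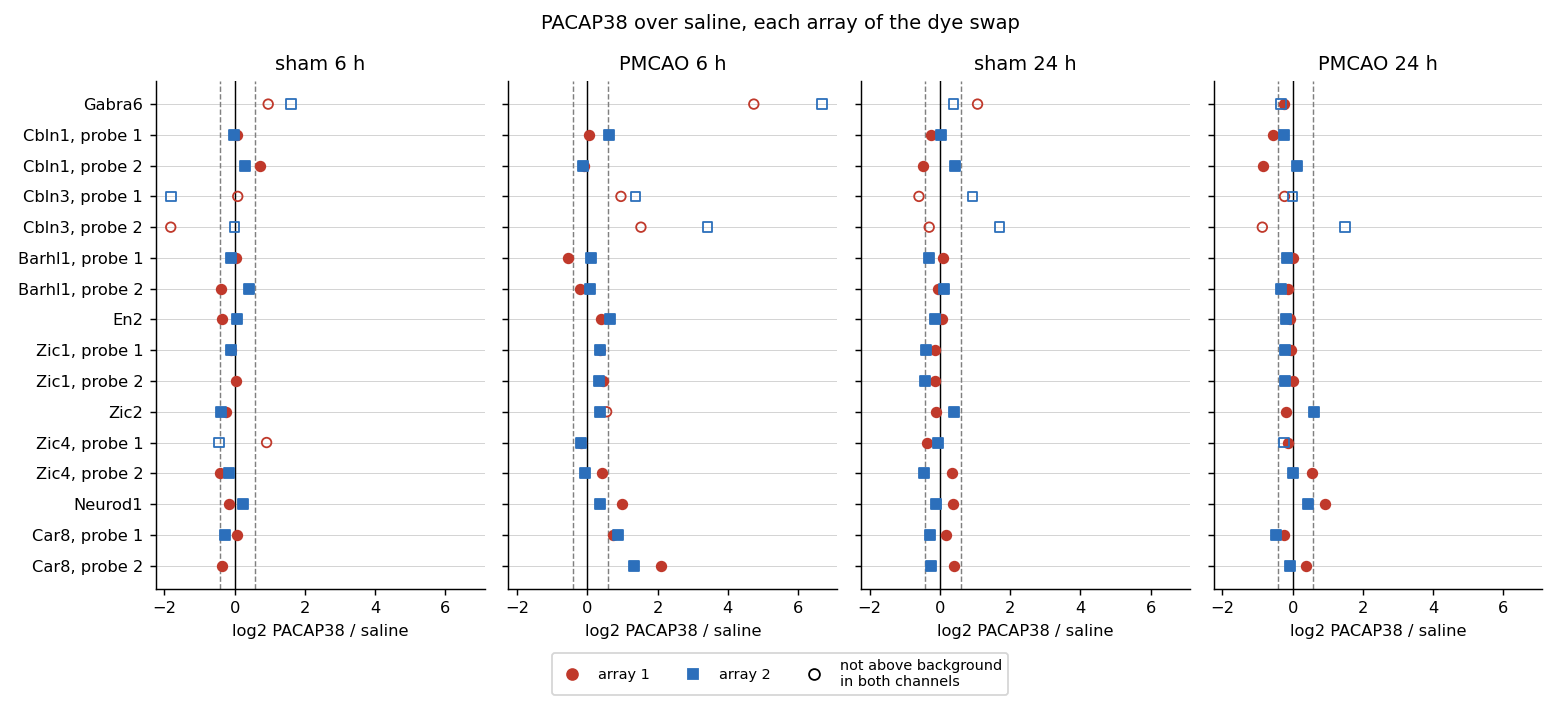
Log2 ratio of PACAP38 over saline (x axis) of each of the 16 probes (y axis) on array 1 (red circles) and array 2 (blue squares) of the 4 comparisons; dashed lines are 1.5-fold up and 0.75-fold down, and open symbols have at least 1 channel not well above background. In PMCAO 6 h *Gabra6*, *Cbln3* and *Car8* lie to the right on both arrays, and elsewhere most probes lie near 0 or differ in sign between arrays.

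PMCAO and sham were not hybridized together, so they were compared between arrays of 1 time point in the same dye, as log2 processed signals minus the 75th percentile of the channel. At 24 h the 2 arrays of each group were alike in level. *Neurod1* was lower after PMCAO with saline, at −0.65 and −0.58 (a mean of 0.65-fold), and had −0.13 and −0.06 with PACAP38. *Car8* was lower with both injections: probe 1 had −0.25 and −0.30 with saline and −0.67 and −0.50 with PACAP38, and probe 2 had −0.43 and −0.86 with saline and −0.49 and −0.68 with PACAP38. Probe 2 of *Zic4* had −0.55 and −0.47 with saline and −0.36 and −0.02 with PACAP38. With saline 0 of the 16 probes were above 1.5-fold and 4 below 0.75-fold, where 9.56% and 13.3% of all probes were, and on each array the counts were again 0 and 4, against 5.74% and 7.57%. With PACAP38 the counts were 0 and 4, against 6.39% and 8.19%, and on each array 0 and 2, against 3.13% and 3.2%. Each count of 4 includes a *Cbln3* probe that was near background in both groups, and with PACAP38 also *Gabra6*, whose 2 values, 0.67 and −1.77, had opposite signs.

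At 6 h the comparison of PMCAO with sham depended on the sham array that stood apart. With both arrays, 1 probe was above and 11 below after saline, where 19.5% and 34.9% of all probes were, and 5 were above and 6 below after PACAP38, against 17% and 30.6%. By array 1 alone 3 were above and 5 below after saline, and 5 above and 0 below after PACAP38. The share of all probes on array 1 alone was not computed, so these counts cannot be set against it. Probe 2 of *Car8*, below after saline and above after PACAP38, had a value on array 1 alone. On each array 1 probe was above and 4 below after saline, against 8.51% and 12.4%, and 3 were above and 0 below after PACAP38, against 4.94% and 5.99%. Probe 1 of *Car8* had −0.24 on array 1 and −3.49 on array 2 after saline, and 0.41 and −2.34 after PACAP38. Probe 1 of *Zic1* had −0.36 and −2.95 after saline, and 0.10 and −2.48 after PACAP38. The same arrays gave *Zic4* probe 2 −0.04 and −3.14 after saline, and 0.78 and −3.05 after PACAP38. For these genes array 2 alone gave the large negative values.

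On array 1, without the array that stood apart, *Neurod1* was at −1.17 and probe 2 of *Car8* at −0.95 after saline, and they were at 0.01 and 1.52 after PACAP38. *En2* was at −0.58 after saline and 0.18 after PACAP38. On array 2 *En2* was at −0.63 and −0.07, so it was among the few members for which the arrays gave like values. *Gabra6* with PACAP38 passed the background flag in PMCAO on 2 of 2 arrays and in sham on the array that stood apart alone. On array 1, where sham was not well above background, it was at least 3.74-fold higher in PMCAO, and on array 2 its level was −1.27 in PMCAO and −4.27 in sham. With saline no *Gabra6* signal of PMCAO or sham passed it. Probe 1 of *Zic4*, whose sham signals with saline were not well above background, was at 1.58 and 1.86 after saline, at least 1.26-fold higher in PMCAO, and at least 1.21-fold by array 1 alone.

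**Figure D3:**
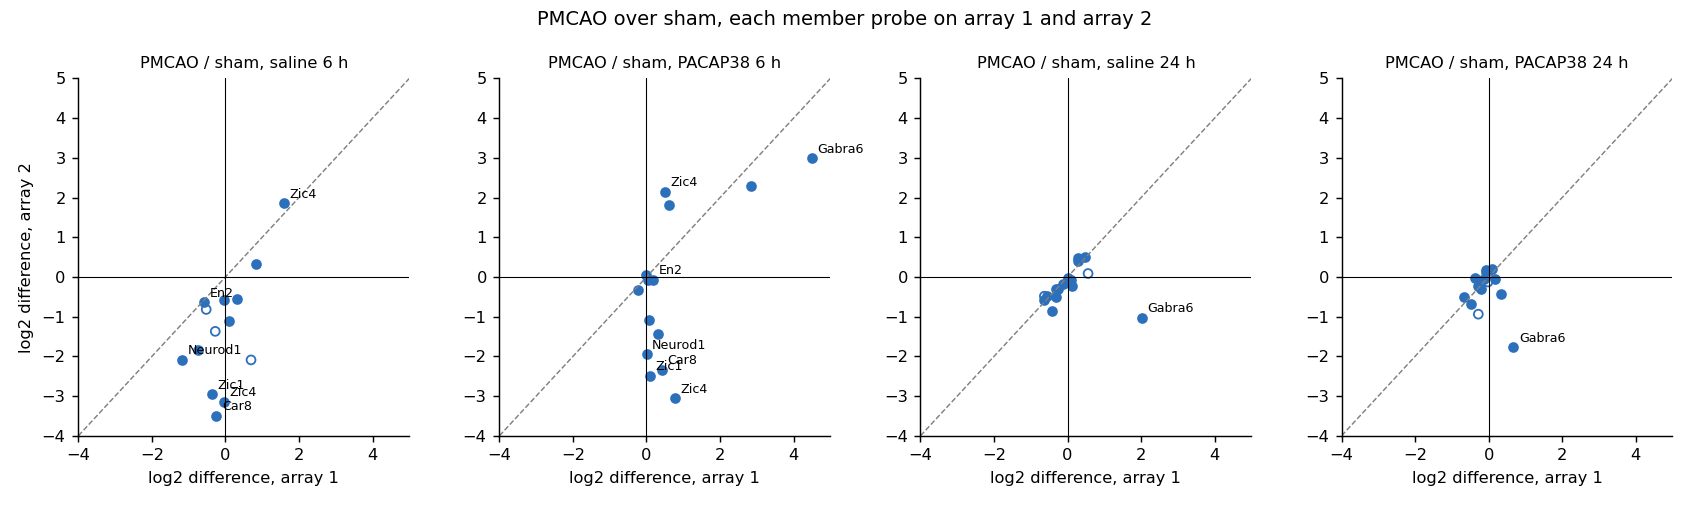
Log2 difference of PMCAO over sham for each member probe with values on both arrays, array 1 on the x axis and array 2 on the y axis, for saline and PACAP38 at 6 h and 24 h; the dashed line marks equal values and open circles were near background in both groups. At 6 h several probes, among them *Car8*, *Zic1* and probe 2 of *Zic4*, lie near 0 on array 1 and below −2 on array 2, while at 24 h most probes lie near the line and *Gabra6* does not.

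Other genes of cerebellar granule neurons were read in PMCAO at 6 h, each at its brightest probe alone. Which cells of the hemisphere gave their signals was not tested. Of 14 other genes of cerebellar granule neurons, 11 were above background in PACAP38 or saline, of which 0 were above 1.5-fold and 1 was below 0.75-fold, with a median log2 ratio of −0.01. Of all probes 5.41% were above and 6.9% below, so counts from 11 genes cannot be told apart from these shares. The same shares apply to the lists below in PMCAO at 6 h. The granule neuron gene below the threshold was *Grm4*, a metabotropic glutamate receptor of parallel fibers, with −0.62 and −0.52. *Fat2*, a protocadherin of granule cells that the array lists as *Fath2*, was not well above background in any group, nor were *Zic5* and *Tlx3* in this comparison. *Gabrd*, which codes for the δ subunit that pairs with α6, was one of the 2 brightest of the list and had −0.15 and 0.22, and *Etv1* had −0.08 on the 1 array with a value.

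Of 13 markers of Purkinje cells and Bergmann glia, all above background, 1 was above the threshold and 0 below, with a median of 0.15. This was *Ppp1r17*, listed as *Gsbs*, a protein phosphatase inhibitor known from Purkinje cells, with 1.83 and 1.29 (2.94-fold). In the other comparisons it had 0.33 and −0.43 (sham 6 h), 0.01 and −0.02 (sham 24 h), and −0.36 and −0.69 (PMCAO 24 h). Like *Car8*, it was in the range of a measured signal in both channels. The brightest genes of the list, *Aldoc* and *Itpr1*, had −0.17 and −0.24, and −0.23 and −0.17. *Itpr1* codes for the IP3 receptor that the product of *Car8* binds. The count of this list takes each gene at its brightest probe. Another probe of *Pcp2*, a gene of the list, had 0.90 and 1.40 in PMCAO at 6 h, above the threshold on each array.

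Of the 13 other subunits of the GABA-A receptor on the array, 0 were above and 1 was below (*Gabrg3*, with −1.34 and 0.26), with a median of −0.02. Of the 7 other cerebellins and their receptors 0 were above and 0 below, with a median of 0.09. *Nrxn2*, which codes for a neurexin, had −0.13 and −0.02.

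Markers of other regions that the tissue piece could hold differed too, and their part in the values of the members was not tested. Of 7 olfactory bulb markers, a region that was to be removed like the cerebellum, 4 were above and 0 below in PMCAO at 6 h, with *S100a5* at 1.68 and 1.56, *Eomes* at 1.40 and 0.68, *Cdhr1* (listed as *Pcdh21*) at 0.69 and 0.75, and *Doc2g* at 0.56 and 0.64. *Gng13*, the brightest of that list, had 0.35 and 0.16. At sham 6 h 5 of its 7 genes were above the threshold (6 of 7 by array 1 alone), at sham 24 h 1 of 6 was, and at PMCAO 24 h 5 of 6 were below it, where *Gabra6* had −0.25 and −0.34. Of 5 markers of serotonergic raphe neurons, 2 were below at sham 6 h, 0 at sham 24 h and 3 at PMCAO 24 h. In PMCAO at 6 h 2 were below. These were *Slc6a4*, the serotonin transporter, at −1.78 and −1.86, and *Tph2*, the enzyme that starts serotonin synthesis, at −1.05 and −1.76, while *Ddc* and *Slc18a2*, the brightest genes of the list, had −0.18 and −0.20, and −0.17 and 0.12.

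Of 6 markers of dentate gyrus granule neurons, 3 were below and 0 above: *Lct* with −1.13 and −0.97, *Dsp* with −0.79 and −1.27, and *C1ql2* with −0.71 and −0.70. *Stxbp6*, the brightest, had 0.08 and −0.09. *Neurod1*, which those neurons also express, had 1.00 and 0.35 in the same comparison, and array 1 alone was above 1.5-fold. Its relation to these markers was not tested. Of 6 thalamic markers 0 were above and 0 below, with *Slc17a6* at 0.94 and −0.34 and *Tcf7l2* at 0.72 and 0.25. Of the 14 hindbrain and brainstem markers 8 were above background, with 1 above (*Slc6a5*, with 1.58 and −0.21) and 1 below (*Hoxb5*, above background on 1 array after saline alone), and *Hoxb6* had −0.09 and 0.14 and *Hoxa3* −0.47 and −0.24. Of the 7 midbrain markers 4 were above background and 0 passed in either direction, with *Slc6a3* at −0.20 and 0.01 and *Th* at 0.02 and 0.04.

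**Figure D4:**
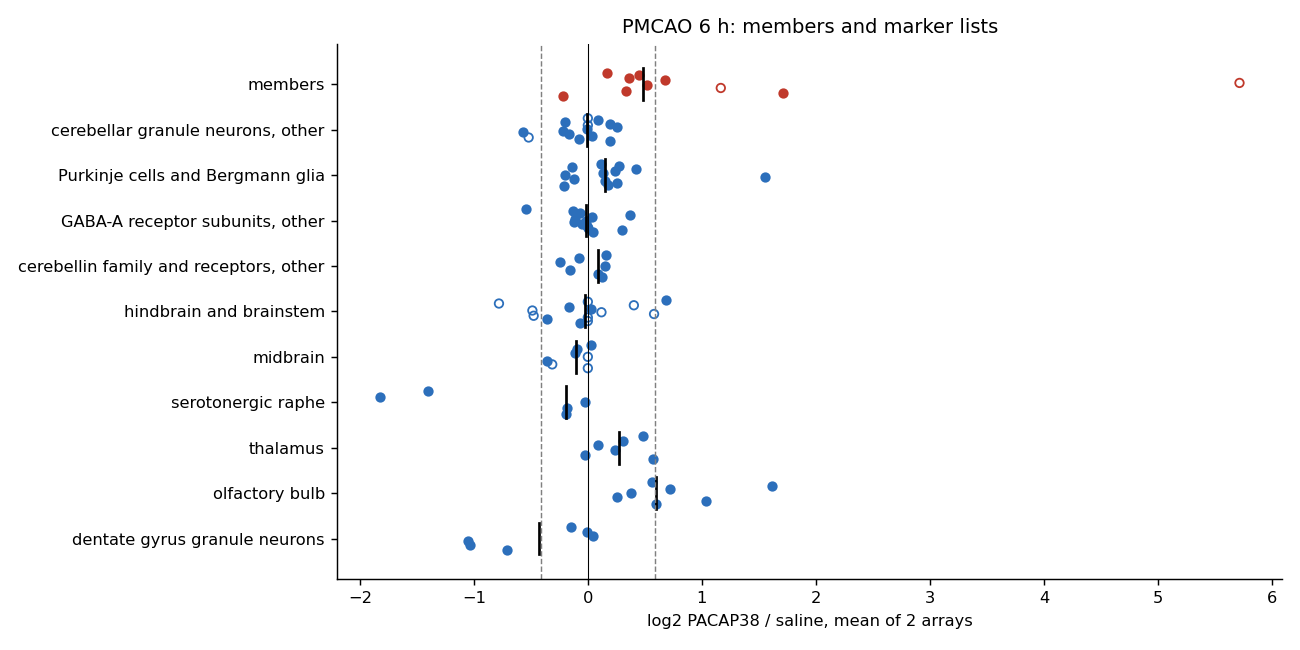
Log2 ratio of PACAP38 over saline in PMCAO 6 h (x axis, mean of the arrays with a value) of the 10 genes (red) and of 10 marker lists (blue), 1 point per gene at its brightest probe; open points were not well above background in 1 or both groups, black bars are medians over genes above background in at least 1 group, and dashed lines are 1.5-fold up and 0.75-fold down. The granule neuron, GABA-A and cerebellin lists have medians between −0.02 and 0.09, and the olfactory bulb list and the members have medians of 0.60 and 0.48.

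The genes with the pattern most like *Gabra6* were looked for over the 8 groups, with each time point centered, among 10527 probes that were above background in some group and ranged over 1 log2 unit. The 5 highest correlations (Pearson's r, 0.917 to 0.927) were those of *Ceacam1*, *Tmem16d* and the transcripts TC1538868, AK087200 and AK049382. All 5 had log2 ratios between 1.93 and 2.66 on array 1 of PMCAO 6 h and between −0.14 and 0.84 on array 2. TC1538868 alone was above 1.5-fold on array 2 as well, and for the others the difference rested on array 1. Without the sham array that stood apart, 0 of these 5 remained among the first 5, which then were AK084888, *Tll1*, LOC195531, AI853839 and *Gsbs*, with r of 0.957 to 0.973. Of these, AI853839 had log2 ratios of 3.41 and 2.12 on the arrays of PMCAO 6 h. Over the 8 single-array ratios of PACAP38 over saline the first 5 held none of the others either, and the third was a probe of *Pcp2*, a marker of Purkinje cells, with r of 0.974 and log2 ratios of 0.90 and 1.40 in PMCAO at 6 h. Among the members the measures differed. By these ratios probe 1 of *Car8* had an r of 0.934 and *En2* of 0.916, and by the group levels they had 0.021 and 0.42. Probe 2 of *Cbln3* had 0.868 by the group levels and 0.632 by the ratios, probe 2 of *Car8*, with no value on 1 array, had 0.833 by the levels, and probe 1 of *Barhl1* had −0.79 by the levels and −0.078 by the ratios. The 8 points share pools, slides and dyes and are led by PMCAO 6 h, so the r values describe that comparison.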

How the data were processed

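The labels and methods describe total RNA of pooled hemispheres hybridized to two-color Agilent 60-mer arrays. Each time point had its own slide, so time and slide cannot be told apart. The authors scanned the arrays and deposited Feature Extraction output (in the file headers, software 9.5.1.1 for the 6 h arrays, 9.5.3.1 for the others), with array annotation on mm7. Each deposited log10 ratio sets Cy5 against Cy3 once the software has subtracted background, detrended and normalized the dyes. The deposited intensity columns are mean signal, local background and processed signal. The deposited flags (0 or 1) mark outliers and spots whose signal is well above background. A deposited table holds the processed ratio, Cy5 over Cy3, for every array. Where PACAP38 was in Cy3, its deposited values are a score, the ratio with a minus sign, and sizes differed from the processed signals by at most 0.005. Second copies of 3 arrays held identical values and were not used.

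Ratios were turned to log2 of PACAP38 over saline, outlier spots were left out, spots of a probe were averaged, and so were both arrays. A probe was called well above background where at least 50% of its used spots were. Above 1.5-fold was up and below 0.75-fold was down, the limits that the study states. No test was run, because by the methods each comparison has 1 pool per group. Shares of all probes cover those with a value on both arrays. A gene with several probes was taken at its brightest probe in counts of genes and lists. Lower limits use signals after normexp (offset 50), loess and Aquantile in limma 3.58.1 under R 4.3.3. Precision is limited by the number of arrays. The members and lists were chosen with earlier results of these data known. Genes named from a list were those past the threshold on each array in PMCAO 6 h, at most 4 a list, the 2 brightest of each list, and the 5 most like *Gabra6*. Of these, 2 genes are not reported here. Others (*Fat2*, *Zic5*, *Tlx3*, *Doc2g*, *Gabrg3*, *Slc6a5*, *Hoxb5* and *Pcp2*) were named after their values were seen. *Fat2*, *Ppp1r17* and *Cdhr1* were matched to older array symbols through RefSeq. Counting and correlation were tested on simulated data (Python 3.11.15 with pandas 2.3.3 and numpy 2.4.6, figures with matplotlib 3.10.9). The simulated counts took their noise from the normexp and loess ratios, and the simulated correlations used random normal values. These tests therefore do not cover the noise of the scanner's ratios near background, on which the counts rest. The alternatives were normexp with loess, the deposited ratio table, each array alone, outlier spots kept, all probes of a gene averaged, a filter on background, the threshold on each array, 1.5-fold either way, median scaling, Aquantile, leaving out *Gabra6* and leaving out sham 6 h array 2 (the last 2 chosen after seeing the data).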

Additional observations from a re-analysis of the deposited data

Results flagged for a closer look

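For 4 members the ratio of PACAP38 over saline had 1 sign on both arrays of a comparison and the other sign on both arrays of another, each with at least 1 of the PACAP38 and saline signals well above background on each array, and these differences were not tested. Between PMCAO and sham at 6 h, *Zic1* differed by 0.46 on the log2 scale, from −0.10 in sham to 0.36 in PMCAO, and *Zic2* by 0.77, from −0.32 to 0.45. In PMCAO the saline signal of *Zic2* was well above background on 1 of 2 arrays. Sham 6 h array 2, which stood apart, is part of both differences, and sham array 1 alone had −0.10 for *Zic1* and −0.26 for *Zic2*. Between 24 h and 6 h of PMCAO, *Cbln1* differed by −0.74, from 0.33 to −0.41, *En2* by −0.65, from 0.51 to −0.14, and *Zic1* by −0.49, from 0.36 to −0.13. Time and slide cannot be told apart in these 3.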

How the results depend on the processing

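No paired analysis was possible because by the methods the 2 arrays of a comparison hold the same pools, and no test was run. The cause of each change below was not tested, except that fewer probes, arrays or genes enter by construction under the filters.

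For PACAP38 over saline, the median over the 10 genes in PMCAO at 6 h, 0.48, was 0.26 after normexp and loess, and 0.45 both without *Gabra6* and with only probes above background. In sham at 6 h it went from −0.12 to −0.052 after normexp and loess and −0.031 with all probes of a gene averaged. In sham at 24 h single arrays gave −0.13 to 0.072. In PMCAO at 24 h it went from −0.093 to −0.017 after normexp and loess, 0.031 in the deposited table and 0.039 with only probes above background. The count of probes past either threshold in PMCAO at 6 h, 6, was 2 after normexp and loess. In sham at 6 h the count of 3 became 0 after normexp and loess, 0 with only probes above background and 1 on each array. In sham at 24 h the count of 2 became 0 after normexp and loess, 0 with only probes above background, 0 on each array and 3 to 4 on single arrays. In PMCAO at 24 h the count of 1 became 0 on each array and 3 to 4 on single arrays. *Cbln3* in sham at 6 h was −1.81 to 0.086 on single arrays. The lower limit of *Gabra6* in PMCAO at 6 h was 2.11-fold after loess and Aquantile and 17.3-fold from processed signals.

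For PMCAO over sham, the median with PACAP38 at 24 h went from −0.18 to −0.080 after normexp, loess and Aquantile and was −0.18 to −0.082 on single arrays, and with saline at 24 h it was −0.38 to −0.22 on single arrays. After normexp, loess and Aquantile the counts of 12, 11, 4 and 4 (saline 6 h, PACAP38 6 h, saline 24 h, PACAP38 24 h) became 5, 7, 1 and 1. With the threshold in each dye they were 5, 3, 4 and 2, and with PACAP38 at 24 h the count was 2 with only probes above background. Without sham 6 h array 2 the count with PACAP38 at 6 h was 5, and single arrays gave 5 to 10. *Gabra6* after saline at 6 h reversed from −0.70 to 0.40 after normexp, loess and Aquantile, and single arrays gave −2.09 to 0.70, all below background. With PACAP38 at 24 h single arrays gave it −1.77 to 0.67. With PACAP38 at 6 h single arrays gave *Zic1* −2.48 to 0.10, *Zic2* −1.09 to 0.078, *Zic4* −3.05 to 0.78 and *Neurod1* −1.95 to 0.0083, each positive on array 1. With its probes averaged *Zic4* at 6 h was 0.064 after saline and 0.092 after PACAP38. At this signal over background, differences of *Cbln3* and, outside PMCAO 6 h, of *Gabra6* could not be measured.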
